A study of Mus musculus with 9 samples.

Results

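The 10 genes described here encode the muscle actins Acta1, Acta2, Actc1 and Actg2, the actin-binding proteins Tagln, Cnn1 and Cnn2, the tropomyosins Tpm1 and Tpm2, and the myosin light chain Myl9. They were taken by gene symbol from a table of counts for 55487 genes, and each symbol matched 1 gene. RNA had been sequenced from MCEC, an established line of mouse cardiac endothelial cells, after poly-A selection. There were 3 groups of 3 libraries: unmodified wild type cells (WT), a Zbtb46 knockdown (KD) and an enforced overexpression of Zbtb46 (OE). Zbtb46 is a zinc finger transcription factor of the BTB family. How the knockdown and the overexpression were made, and whether each line is 1 clone or a pool, is not given in the sources used here. None of the 9 libraries is labelled as a control vector. No label says whether replicates were separate cultures, so p values measure only the spread between these libraries, which may be technical. Some of the 10 genes, Actc1 and Acta2 among them, were picked because earlier results from these libraries showed them to differ. Their values are therefore given as a description without a p value.

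Actin forms the thin filaments that myosin pulls on. The 4 muscle actins differ in a few residues and are made mainly in skeletal muscle (Acta1), vascular smooth muscle (Acta2), heart (Actc1) and visceral smooth muscle (Actg2), while Actb and Actg1 encode the cytoplasmic actins of all cells. Tropomyosins lie along actin filaments and set which myosins and regulators can bind, calponins and transgelin bind and stabilise filaments, and Myl9 is the regulatory light chain whose phosphorylation starts smooth muscle contraction. Many of these genes are transcribed by serum response factor (SRF) with its myocardin family partners through a sequence called the CArG box. In cultured endothelial cells, raised Acta2, Tagln and Cnn1 are widely used as signs of a turn towards a mesenchymal state.

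The promoters of 3 muscle actins are shown because these genes carry like sequences and stood at very different levels in MCEC. Each is the 250 bases before the RefSeq start on GRCm38.p6, all on the minus strand. They lie at chr2:114052876-114053125 for Actc1, chr19:34255374-34255623 for Acta2 and chr8:123894776-123895025 for Acta1. Capitals mark CArG boxes (CC, then 6 bases of A or T, then GG), the same sequence with 1 C or G among those 6 bases, and CATTCC, the core of the element bound by TEAD factors, on either strand.
Actc1: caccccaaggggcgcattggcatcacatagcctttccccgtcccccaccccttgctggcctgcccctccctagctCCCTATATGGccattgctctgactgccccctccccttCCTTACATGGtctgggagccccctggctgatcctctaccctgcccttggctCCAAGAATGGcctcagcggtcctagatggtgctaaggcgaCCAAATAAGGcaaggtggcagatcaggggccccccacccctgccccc
Acta2: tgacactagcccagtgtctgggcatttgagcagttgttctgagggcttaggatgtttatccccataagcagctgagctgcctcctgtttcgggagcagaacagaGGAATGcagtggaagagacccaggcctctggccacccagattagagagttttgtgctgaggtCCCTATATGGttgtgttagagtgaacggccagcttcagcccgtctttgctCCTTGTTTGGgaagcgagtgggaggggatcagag
Acta1: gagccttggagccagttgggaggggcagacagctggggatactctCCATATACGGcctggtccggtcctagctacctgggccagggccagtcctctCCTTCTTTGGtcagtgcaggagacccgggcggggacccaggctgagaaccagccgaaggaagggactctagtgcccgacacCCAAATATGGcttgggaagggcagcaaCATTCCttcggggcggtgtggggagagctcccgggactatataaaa
The Actc1 window held 1 CArG box, starting 47 bases before the RefSeq start, and 3 with 1 changed core base. Acta2 held 2 of the changed form and CATTCC on the minus strand. Acta1 held 1 CArG box, 2 of the changed form and CATTCC. The sequence CCCTATATGG occurred in both Actc1, from 175 bases before the start, and Acta2, from 84 bases before it. RefSeq promoters were found for 8 of the 10 genes. A CArG box stood in 4 of these 8 (Acta1, Actc1, Cnn2 and Myl9), against 1.47% of the 32851 promoters in the table. The changed form stood in 4 (Acta1, Acta2, Actc1 and Myl9), against 7.25%, and CATTCC in 3 (Acta1, Acta2 and Tpm1), against 12.6%. These are matches of letters only. Actc1, at 0 counts in WT, held 4 of the marked CArG-type sequences, and Tpm1, the most abundant of the 10 mRNAs, held 0. Only the 250 bases before 1 RefSeq start per gene were searched, and a link of these sequences to the levels was not tested.

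Library totals ran from 39491828 to 55745849 counts, and ribosomal RNA took 7.44% to 17.3% of the counts in WT, 9.55% to 12.0% in KD and 14.4% to 18.2% in OE, whose part in the results was not tested. Zbtb46 stood at 13.7 ± 0.623 CPM (counts scaled to a common library size with TMM factors; SD, n = 3) in WT. It stood at 11.2 ± 0.537 CPM in KD and at 191 ± 2.67 CPM in OE. Of 11 endothelial markers, 7 had at most 10 counts in every library, Pecam1, Cdh5, Vwf and Cldn5 among them, and Erg had 0. Eng, at 124.5 CPM in WT, made up most of the summed level of these markers, which ran from 124 to 137 CPM in WT, 110 to 115 in KD and 84.7 to 91.3 in OE. Of 10 fibroblast markers, 3 had at most 10 counts in every library, and Col1a2 stood at 0.611 and Postn at 0 CPM in WT. Dcn stood at 98.0, Thy1 at 32.4 and Pdgfra at 17.1 CPM in WT. Col1a1, at 5259 CPM, and Col3a1, at 3145 CPM, made up most of the summed level in WT. Summed fibroblast markers ran from 8123 to 8995 CPM in WT, from 8079 to 8204 in KD and from 5095 to 5206 in OE. Of the 6 tested, 6 were called lower in OE than in WT, where 19.5% of all genes tested were. In KD against WT, 1 was called higher and 1 lower, where 11% and 10.4% of all genes were. The part of such cells in the results below was not tested. In a fit over all genes, 51.4% of the genes called in KD against WT and 46.6% of those called in OE against WT were higher, and these shares were 35.8% and 31.6% with library totals alone as the scale.

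Compared per 1000 bases of exon (RPKM), the 10 genes spanned a wide range. In WT the order was Tpm1 at 141 ± 1.84 RPKM (SD, n = 3), Cnn2 at 34.5 ± 1.38, Acta2 at 3.52 ± 0.460 and Tpm2 at 0.900 ± 0.0899, and the libraries of each of these genes lay wholly above those of the next. Cnn1 (0.274 ± 0.0687) and Tagln (0.220 ± 0.0735) overlapped each other. Myl9, Acta1 and Actg2 stood under 0.1 RPKM in every WT library, and Actc1 at 0. In KD and in OE, Actc1 moved into the third place, above Acta2, at 4.45 ± 0.397 and 3.33 ± 0.528 RPKM. Tpm1 and Cnn2 kept the first and second places in all 3 groups. The most abundant of the 10 mRNAs were thus the widely expressed Tpm1 and Cnn2. Among genes typical of smooth muscle, Cnn1, Tagln, Myl9 and Actg2 each stood under 0.5 RPKM in every library. Acta2, the vascular smooth muscle actin, stood above them, with means of 3.52 (WT), 1.27 (KD) and 0.799 RPKM (OE). Tpm2, a tropomyosin typical of muscle, had means of 0.900 (WT), 0.541 (KD) and 0.597 RPKM (OE).

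**Figure D1:**
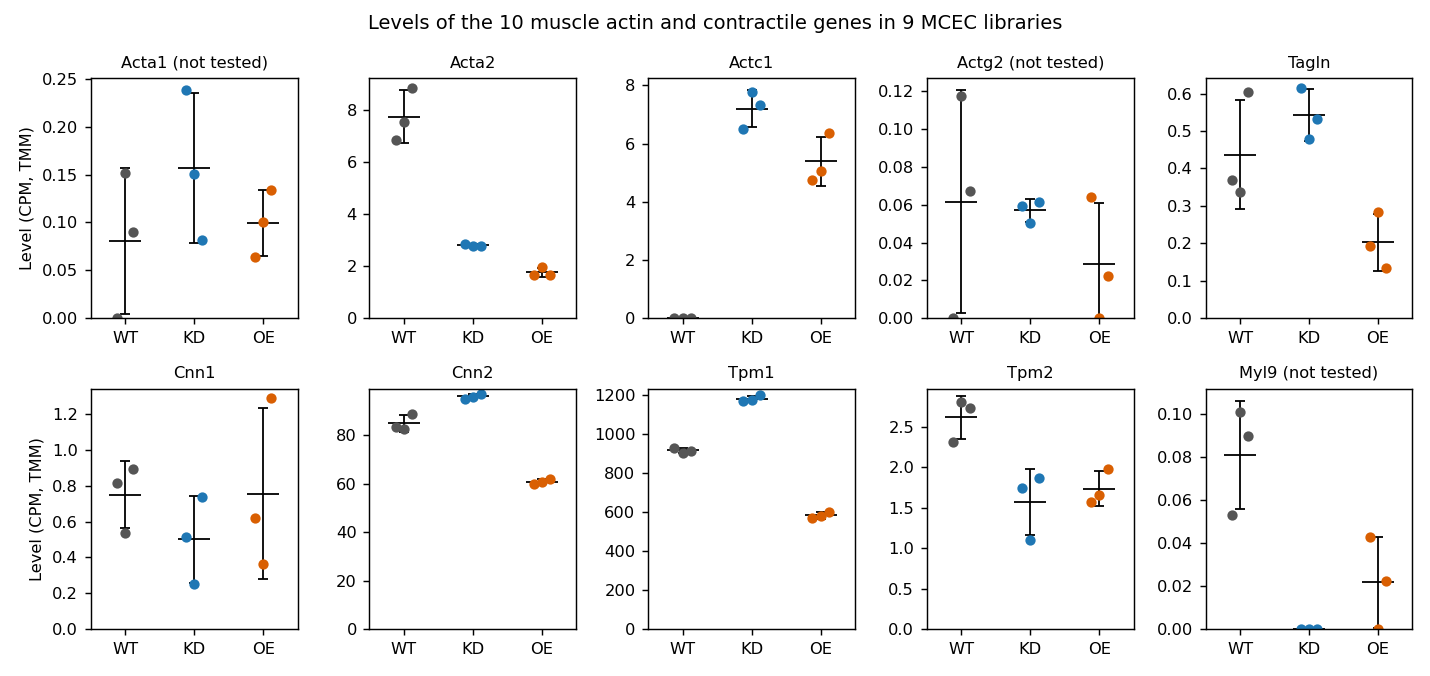
Level in CPM (TMM scale, each panel with its own linear axis from 0) of the 10 genes in the 3 libraries of WT, KD and OE; points are libraries, lines and bars the mean and SD (n = 3). Actc1 was at 0 in the 3 WT libraries and between 4.75 and 7.79 CPM in the other 6, while Acta2 stood at 6.85 CPM or more in WT and at 2.84 CPM or less in the other 6.

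With the adjusted p taken over 16955 tested genes and a threshold of 0.05, 5 of the 10 genes differed between KD and WT. Actc1, Cnn2 and Tpm1 were higher and Acta2 and Tpm2 lower. Of all genes tested, 21.3% differed in this comparison, 11% higher and 10.4% lower, and 34.7% had groups that did not overlap (17.6% higher, 17% lower). Between OE and WT, 5 of the 10 differed, Actc1 higher and Acta2, Cnn2, Tpm1 and Tpm2 lower, where 36.4% of all genes differed, 17% higher and 19.5% lower, and 45.1% had groups that did not overlap (21.7% higher, 23.5% lower). Between OE and KD, 5 were lower in OE and 0 higher: Acta2, Actc1, Tagln, Cnn2 and Tpm1. In that comparison 41.5% of all genes differed, 19.4% higher and 22.1% lower, and 55.4% did not overlap (27.2% higher, 28.2% lower). Acta1, Actg2 and Myl9 had too few counts to be tested, and Cnn1 differed in 0 of the 3 comparisons. Because the genes were chosen with these differences known, and Actc1 could be tested only through the groups in which it was present, the counts are given without reading them against the shares of all genes.

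Actc1 (ENSMUSG00000068614), the actin of the heart muscle thin filament, lies on the minus strand of chromosome 2 from 114047282 to 114053548 (GRCm38, GENCODE M21). It had 0 counts in each WT library, which allows at most 3 counts or 0.0504 to 0.0791 CPM. In KD it stood at 6.52, 7.79 and 7.31 CPM, from 310 to 357 counts, and in OE at 4.75, 5.05 and 6.36 CPM, from 223 to 286 counts. It was thus present in all 6 libraries of modified cells and in none of the 3 from WT. Zbtb46 mRNA itself was only slightly lower in KD (11.2 CPM) than in WT (13.7 CPM), and far higher in OE (191 CPM). Set against 3 counts per WT library, the KD level was at least 109.9-fold and the OE level at least 82.2-fold higher. The 3 OE libraries lay below the 3 KD libraries, with a log2 fold change of -0.42 (SE 0.15). This last difference no longer passed with limma-voom (-0.42). It was also lost without KD replicate 2 (-0.36) or 3 (-0.41) and without OE replicate 1 (-0.34) or 2 (-0.37).

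Whether these counts could be reads of another actin was examined by sequence. Of the 1568 different stretches of 50 bases in the GENCODE transcripts of Actc1, 0 occurred in a transcript of another gene. For Acta2, 7 of 2146 were shared, with Actg1 and pseudogenes, and for Acta1 31 of 1534, with Actb and pseudogenes. Within 200 kb of Actc1 the table held 9 other genes. The connexin gene Gjd2 had at most 2 counts in any library, C130080G10Rik, which starts 787 bases from Actc1, had 0, and the 2 entries of A530058N18Rik had 0 and at most 6. The tested neighbour Aqr, a splicing helicase, stood at 97.5 ± 6.60 CPM in WT and 100 ± 2.77 in KD, and the neighbour Zfp770 at 14.2 ± 0.990 and 16.4 ± 0.800 CPM. Of the 4 tested neighbours, Arhgap11a rose in KD (0.20, adjusted p 0.00536), and Arhgap11a, Aqr and Zfp770 rose in OE by 0.28, 0.16 and 0.32.

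Acta2 (ENSMUSG00000035783, chromosome 19, 34241090 to 34255590, minus strand) is the main actin of vascular smooth muscle and myofibroblasts. It was lower than WT in both modified lines, where Actc1 was higher, and like Actc1 it was lower in OE than in KD. WT libraries stood at 6.85, 7.51 and 8.84 CPM, KD libraries at 2.84, 2.79 and 2.77, and OE libraries at 1.66, 1.96 and 1.64. The 3 groups did not overlap, with WT highest and OE lowest. The log2 fold change was -1.47 (SE 0.11) for KD over WT, -2.14 (SE 0.13) for OE over WT and -0.67 (SE 0.080) for OE over KD. Acta2 was thus 63.8% lower in KD and 77.3% lower in OE than in WT. Summed markers of smooth muscle cells and pericytes, a list without Acta2, ran from 9.70 to 11.7 CPM in WT, 7.94 to 9.48 in KD and 6.97 to 7.99 in OE. Of its 9 markers, Notch3 and Pdgfrb had the most counts, Myocd had at most 4 counts in any library, and 0 passed the test in KD and 1 (lower) in OE against WT. The part of such cells in the level of Acta2 was not tested. In RNA from whole cultures, fewer cells of a type and less RNA per cell cannot be told apart.

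Acta1 and Actg2 were barely detected. Acta1 (chromosome 8), the skeletal muscle actin, had 0 to 9 counts per library in WT, 4 to 12 in KD and 3 to 6 in OE. Actg2 (chromosome 6), the enteric smooth muscle actin, had 0 to 7, 2 to 3 and 0 to 3 counts. The groups overlapped for both genes, and no difference was detectable at this depth. Of the 50-base stretches of Acta1, 28 occurred in Actb, which had up to 222800 counts in a WT library. How many of the Acta1 counts were reads of Actb was not tested.

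The make-up of the muscle actin mRNA therefore differed between WT and the modified lines more than its total did. Per exon length, Acta2 was 97.6% ± 2.42 of the 4 muscle actins in WT (SD, n = 3). Its share was 21.8% ± 1.54 in KD and 19.2% ± 3.19 in OE. Actc1 was 0%, 75.8% ± 2.43 and 78.8% ± 2.99. The summed level of the 4 was 3.61 ± 0.502 RPKM for WT, 5.87 ± 0.349 for KD and 4.21 ± 0.514 for OE. WT libraries, at 3.12 to 4.13, lay below KD libraries, at 5.51 to 6.21, and overlapped OE libraries at 3.78 to 4.78. Beside the cytoplasmic actins these were traces. Actb gave 85.8% ± 0.667 of all 6 actin mRNAs in WT and Actg1 13.9% ± 0.651, against 0.207% ± 0.0119 for Acta2. In KD, Actc1 reached 0.245% ± 0.0215 of the 6, and in OE 0.242% ± 0.0349.

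**Figure D2:**
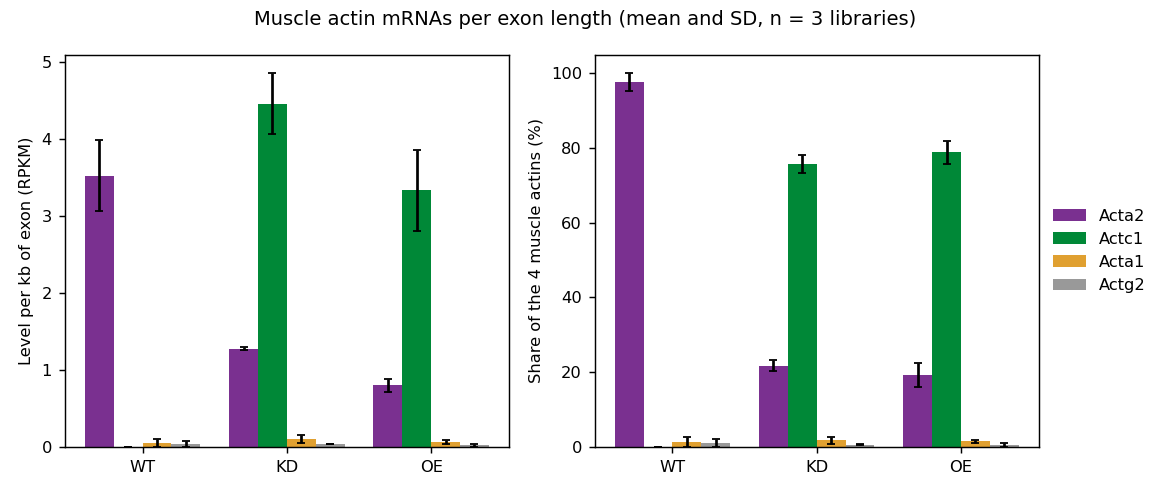
Level per 1000 bases of exon (left, RPKM) and share of the 4 muscle actins (right, %) for Acta2, Actc1, Acta1 and Actg2 in WT, KD and OE; bars are means and error bars SDs of 3 libraries. Acta2 made up 97.6% in WT, and Actc1 75.8% in KD and 78.8% in OE.

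Tpm1 (ENSMUSG00000032366; chromosome 9, 67022590 to 67049406, minus strand), the alpha tropomyosin gene, whose many isoforms serve muscle and non-muscle filaments alike, was the most abundant of the 10. Its libraries stood at 928, 904 and 914 CPM in WT, 1168, 1173 and 1198 in KD, and 568, 579 and 600.1 in OE. KD lay above and OE below WT with no overlap, and the spread within a group was at most 2.83% of its mean. The log2 fold change was 0.37 (SE 0.016) in KD, -0.65 (SE 0.026) in OE, and -1.02 (SE 0.026) in OE against KD. The 157 tested genes of its 20 Mb stretch of chromosome 9 had medians of -0.34 (OE over WT) and -0.46 (OE over KD). With window medians removed, the Tpm1 values were -0.32 and -0.57 and still passed. A gene total does not show which isoforms were present.

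Tpm2 (ENSMUSG00000028464; chromosome 4, 43514711 to 43523765, minus strand), the beta tropomyosin typical of muscle, was rare and lower in both modified lines. WT stood at 2.32, 2.81 and 2.73 CPM, KD at 1.75, 1.11 and 1.86, and OE at 1.58, 1.66 and 1.98. WT lay above KD and OE, which overlapped each other. The log2 fold change was -0.73 (SE 0.25) in KD and -0.60 (SE 0.13) in OE. The KD difference no longer passed without KD replicate 2 (-0.54), nor did the OE difference without OE replicate 1 (-0.53), OE replicate 2 (-0.56), WT replicate 2 (-0.55) or WT replicate 3 (-0.58). Of the 4 tropomyosin genes, per exon length, Tpm1 gave 39.3% ± 0.931 of the WT mRNA, 43.6% ± 0.299 of the KD and 31.1% ± 0.118 of the OE mRNA, and Tpm2 at most 0.269% of it in any library. Tpm3, a non-muscle paralog, gave 23.7% ± 0.143, 20.4% ± 0.242 and 30.4% ± 0.0402. The lower share of Tpm1 in OE thus stood beside a Tpm3 level, of 85.0 ± 2.27 RPKM in KD and 87.7 ± 2.11 in OE, whose libraries overlapped between the groups.

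Cnn2 (ENSMUSG00000004665; chromosome 10, 79988584 to 79996062, plus strand), the calponin of many non-muscle cells, followed the order of Tpm1. WT libraries stood at 83.5, 82.6 and 88.9 CPM, KD at 95.1, 96.02 and 97.2, and OE at 59.8, 60.8 and 61.8. The groups did not overlap, with KD highest and OE lowest. The log2 fold change was 0.18 (SE 0.034) in KD, -0.48 (SE 0.036) in OE and -0.66 (SE 0.017) in OE against KD. The KD difference did not pass with library totals as the scale (0.14). Cnn2 lies in a window whose median differed from 0 by at most 0.034 in these comparisons.

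Cnn1 (chromosome 9, 22099216 to 22109630), the calponin of differentiated smooth muscle, stood at 0.817, 0.538 and 0.895 CPM in WT, 0.517, 0.251 and 0.738 in KD, and 0.618, 0.363 and 1.29 in OE. All 3 groups overlapped, and the OE libraries differed among themselves by more than the group means did. Tagln (chromosome 9, 45929619 to 45936058), the transgelin of smooth muscle, had 14 to 27 counts in WT, 19 to 31 in KD and 6 to 14 in OE. The WT level was 0.436 ± 0.146 CPM (SD, n = 3), the KD level 0.542 ± 0.0698 and the OE level 0.203 ± 0.0752. OE lay below both other groups, and KD overlapped WT. The log2 fold change was -1.08 (SE 0.35) in OE against WT, which did not pass, and -1.40 (SE 0.27) in OE against KD, which did. That call was lost with window medians removed (-0.87), without KD replicate 1 (-1.31) and without OE replicate 3 (-1.18). The exons of Tagln overlap those of Pcsk7 on the other strand, which stood at 55.1 ± 3.89, 61.4 ± 1.36 and 36.9 ± 1.58 CPM in WT, KD and OE. Without knowledge of the strand setting, reads of these genes cannot be told apart.

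Myl9 (ENSMUSG00000067818; chromosome 2, 156775420 to 156781658), the smooth muscle regulatory light chain, had 2 to 6 counts per library in WT, 0 in each KD library and 0 to 2 in OE. The 0 counts in KD allow up to 0.0596 to 0.0754 CPM, and WT stood at 0.0527 to 0.101 CPM. WT lay above KD and OE, but by a difference within what these few counts can resolve. Its non-muscle paralog Myl12a gave 96.2% ± 0.126 of the 3 regulatory light chain mRNAs in WT per exon length. In the same way Tagln2 gave 99.9% ± 0.0448 of the transgelin mRNA in WT, and Cnn3 76.2% ± 0.284 of the calponin mRNA. In each of the 5 families, then, nearly all or most of the mRNA came from the widely expressed paralogs, with Tpm1 and Cnn2 the only genes of the 10 to give over 10% of a family that includes the non-muscle genes.

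**Figure D3:**
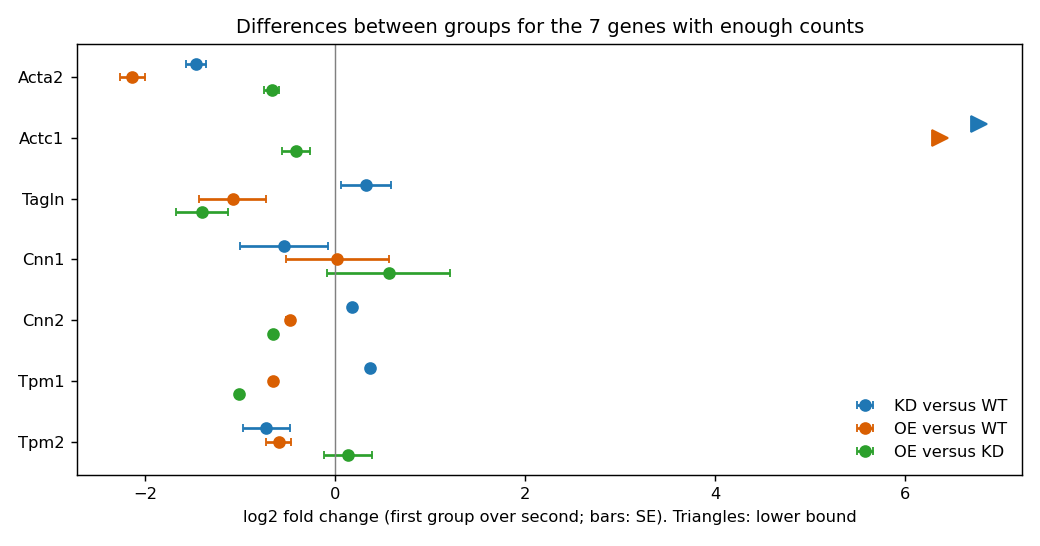
log2 fold change of the 7 tested genes (horizontal axis, first group over second; bars show the SE) in KD against WT, OE against WT and OE against KD; triangles mark lower bounds for Actc1, which was at 0 in WT. Acta2 and Tpm2 lay below 0 in both comparisons with WT, Tpm1 and Cnn2 above 0 in KD and below 0 in OE.

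Actc1, Acta2, Tpm2, Tpm1 and Cnn2 passed in both comparisons with WT. How many of all genes tested did so was not counted. Actc1 was higher in both KD and OE, Acta2 and Tpm2 were lower in both, and Tpm1 and Cnn2 were higher in KD and lower in OE. The comparisons of KD and OE with WT share the WT libraries, so a like direction in both is not independent. In OE against KD, which does not use WT, Tpm1, Cnn2, Acta2 and Actc1 were all lower in OE.

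Genes most like Acta2 and Actc1 over the 9 libraries were looked for by the root-mean-square difference of log2 CPM, each gene centred on its WT mean. For Acta2 these were Serpinf1 (0.275), Islr (0.290) and Meis1 (0.440). Serpinf1, which encodes the secreted factor PEDF, had a WT level of 27.9 ± 1.12 CPM (SD, n = 3), a KD level of 10.9 ± 1.24 and an OE level of 8.29 ± 0.861. Islr, a secreted protein with leucine-rich repeats, stood at 18.8 ± 1.63, 9.29 ± 1.29 and 4.50 ± 0.745 CPM. For Actc1 the nearest was Med12l, a Mediator subunit gene, at a difference of 0.820. Its WT level was 0.0112 ± 0.0194 CPM, its KD level 15.4 ± 0.762 and its OE level 13.7 ± 1.04. The next, Scn2b and Fbxo25, were at 4.08 and 4.16 and were not close, since Scn2b was at 0 in OE and Fbxo25 was already at 21.4 CPM in WT.

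The non-muscle paralogs Actb, Actg1, Tpm3, Tpm4, Cnn3, Tagln2, Tagln3, Myl12a and Myl12b were tested in the fit over all genes. In OE against WT, 6 of the 8 tested fell, 0 rose and 2 did not pass, where 36.4% of all genes were called (19.5% lower). Their median log2 fold change was -0.23, and that of all genes tested was 0.0020. Actg1, a cytoplasmic actin, fell from 631 ± 75.6 to 366 ± 11.9 CPM (log2 fold change -0.79, SE 0.10, adjusted p 3.11e-07). Actb fell from 3905 ± 287 to 3294 ± 78.4 CPM (-0.25, SE 0.063, adjusted p 0.000203). Tpm4 fell by 0.26 on the log2 scale, Myl12a by 0.21, Cnn3 by 0.16 and Tagln2 by 0.12, while Tpm3 (0.046) and Myl12b (-0.36) did not pass. In KD against WT, where 21.3% of all genes were called (11% higher), 3 rose and 0 fell, with a median of 0.11. These were Tpm4 (0.18, SE 0.047), Myl12a (0.17, SE 0.071) and Tagln2 (0.11, SE 0.029), with adjusted p of 0.00369, 0.0180 and 0.0426. Actb (0.10), Actg1 (0.062), Tpm3 (0.0010), Cnn3 (0.016) and Myl12b (0.16) did not pass in KD. With library totals as the scale, 0 of the 8 passed in KD and 7 fell in OE, and with window medians removed Tpm4 alone passed in KD. Between OE and KD, where 41.5% of all genes were called (22.1% lower), 7 of the 8 fell. Actg1 fell most (-0.85, SE 0.038), and Tpm3 did not pass (0.045).

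Of 20 listed partners of the smooth muscle contractile apparatus, 17 were tested; Lmod1, Pln and Itga8 had at most 5 counts. In OE against WT, where 36.4% of all genes were called (19.5% lower), 9 fell and 0 rose, with a median of -0.27. Mylk, the kinase that phosphorylates the regulatory light chain, fell from 17.7 ± 1.59 to 6.91 ± 0.551 CPM (log2 fold change -1.37, SE 0.10, adjusted p 1.80e-10). Smtn, which encodes the actin-binding smoothelin, fell from 151 ± 4.64 to 83.9 ± 2.45 CPM (-0.85, SE 0.035, adjusted p 1.65e-12). The genes around Smtn on chromosome 11 had a median of -0.52 in OE, and the count of 9 was also reached with window medians removed. In KD against WT, where 21.3% of all genes were called, 5 rose and 4 fell, with a median of 0.10. Cald1 (caldesmon) rose from 673 ± 58.2 to 859 ± 10.6 CPM (0.35, SE 0.073, adjusted p 2.42e-05) and Fhl1 from 94.5 ± 1.78 to 114 ± 2.74 CPM (0.27, SE 0.025). Itga7, a laminin-binding integrin, fell from 2.82 ± 0.426 to 1.45 ± 0.195 CPM (-0.95, SE 0.17), and Csrp1 from 117 ± 3.66 to 98.4 ± 4.03 CPM (-0.24, SE 0.043). With library totals as the scale, 2 rose and 3 fell in KD. Compared with KD, 9 of the 17 fell in OE, where 41.5% of all genes were called (22.1% lower). Mylk (-1.67, SE 0.079) and Smtn (-1.07, SE 0.0245) were among them, and Itga7 alone rose (1.06, SE 0.125).

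In the wider actin and myosin machinery, 12 of 20 genes fell and 1 rose in OE against WT, with a median of -0.14. In KD, 3 rose and 3 fell. Of all genes tested, 19.5% were lower and 17% higher in OE, and 10.4% and 11% in KD. Tmsb4x, which sequesters actin monomers, fell from 301 ± 37.2 to 154 ± 4.04 CPM in OE (-0.97, SE 0.11, adjusted p 2.93e-08), and Fscn1, which bundles filaments, from 2142 ± 58.2 to 1508 ± 31.6 CPM (-0.51, SE 0.029). Capzb, a filament capping subunit on chromosome 4, was the gene that rose (0.20, SE 0.055), among neighbours with a median of 0.35. Its sign turned with window medians removed, and it did not pass with library totals. In KD, Vcl (vinculin) rose by 0.30 (SE 0.071) and Rock2, a kinase upstream of myosin, by 0.41 (SE 0.12), while the actin-severing Cfl1 fell by 0.46 (SE 0.054) and Vasp by 0.19 (SE 0.031), which was lost with window medians removed. In OE against KD, where 22.1% of all genes were lower and 19.4% higher, 12 fell and 3 rose. Cfl1 (0.40, SE 0.017) and Capzb (0.25, SE 0.0415, again of the other sign with window medians removed) were among the latter. Tmsb4x (-1.16, SE 0.029) and Fscn1 (-0.60, SE 0.029) were among the former.

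Of 19 listed transcription factors and cofactors of contractile genes, 16 were tested; Myocd, Nkx2-5 and Hopx had at most 12 counts in any library. In OE against WT, where 36.4% of all genes were called (19.5% lower), 7 fell and 0 rose, with a median of -0.068. These were Srf (-0.23), its cofactor Mrtfa (-0.28), Tead3 (-0.12), Tead4 (-0.16), Wwtr1 (-0.19), Gata6 (-0.30, SE 0.011, adjusted p 2.33e-06) and Smad3 (-0.42, SE 0.048, adjusted p 2.68e-07). Srf, Mrtfa, Tead3 and Wwtr1 lie outside the naming rule and are named with their values known. Smad3 and Tead4 were not called with window medians removed (the median around Smad3 was -0.34), nor Tead3 with DESeq2 size factors. In KD against WT, where 21.3% of all genes were called, 3 rose and 2 fell. Tead4 rose by 0.52 (SE 0.035) and Tead1 by 0.32 (SE 0.088), and Tead2 fell by 0.70 (SE 0.082) and Gata6 by 0.19 (SE 0.0099). From KD to OE, where 41.5% of all genes were called (22.1% lower), Tead2 rose (0.76, SE 0.083) and 8 genes fell. Tead4 (-0.68, SE 0.054) and Smad3 (-0.40, SE 0.020) were among those that fell. Smad3 was lost and changed sign with window medians removed.

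Other genes known to respond to SRF or YAP went both ways in KD against WT and mostly down in OE against WT. In OE against WT, where 36.4% of all genes were called, 5 of 11 tested fell and 1 rose, with a median of -0.39. Ccn2 (connective tissue growth factor) fell from 154 ± 11.7 to 84.0 ± 6.12 CPM (-0.87, SE 0.087, adjusted p 2.43e-09) and the Hippo kinase Lats2 from 65.3 ± 1.89 to 41.2 ± 1.81 CPM (-0.66, SE 0.0435). Ankrd1, a muscle ankyrin repeat gene, rose (0.30, SE 0.073). In KD, where 21.3% of all genes were called, 4 rose and 4 fell. Amotl2 (0.32, SE 0.043) and Ajuba (0.21, SE 0.020) rose, and the early response genes Fosb (-1.69, SE 0.36) and Junb (-0.38, SE 0.033) fell. With library totals as the scale, 1 rose and 4 fell in KD, and Ajuba did not pass. In OE against KD, where 41.5% of all genes were called, 4 rose and 6 fell. Ankrd1 (0.33, SE 0.023) and Junb (0.28, SE 0.11) were among the former and Ccn2 (-1.08, SE 0.074) and Lats2 (-0.80, SE 0.042) among the latter.

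Of 30 sarcomere genes, 15 had too few counts to be tested, the heart genes Myh6, Myh7, Myl2, Myl3 and Actn2 among them with at most 7 counts in any library. In KD against WT, where 21.3% of all genes were called, 1 of the 15 tested rose and 2 fell. Tnni2, a skeletal muscle troponin subunit, rose from 0.405 ± 0.266 to 1.02 ± 0.184 CPM. Tnni3, the cardiac subunit, fell from 0.266 ± 0.0542 to 0.0304 ± 0.0267 CPM, and Actn3 fell by 0.50 (SE 0.097) on the log2 scale. In OE against WT, where 36.4% of all genes were called, 2 of the 15 rose and 2 fell. Those that rose were Tnnt2, the cardiac troponin T (0.590 ± 0.179 to 1.11 ± 0.186 CPM), and Tnni2 (to 0.996 ± 0.381 CPM). Those that fell were Myl4 (1.44 ± 0.210 to 0.619 ± 0.320 CPM) and Myl7 (1.69 ± 0.131 to 1.06 ± 0.299 CPM). Tnnt2 did not pass with library totals, nor Myl7 with window medians removed. Against KD, where 41.5% of all genes were called, Tnni3 (3.55, SE 0.40) and Actn3 (0.27, SE 0.024) rose in OE and Myl4 fell (-1.22, SE 0.44). Actn3 did not pass with library totals or with window medians removed. Tnni3 had 8 to 19 counts per library in WT, 0 to 2 in KD and 13 to 21 in OE. Its KD counts lie under the limit of 3, so the size of its differences from KD is not measured. Summed cardiomyocyte markers ran from 0.790 to 1.16 CPM in WT, 0.738 to 1.15 in KD and 1.66 to 1.68 in OE. The KD libraries overlapped those of WT and the OE libraries lay above both, with Myh6 at 0 counts in every library. The part of these markers' cells in the level of Actc1 was not tested.

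**Figure D4:**
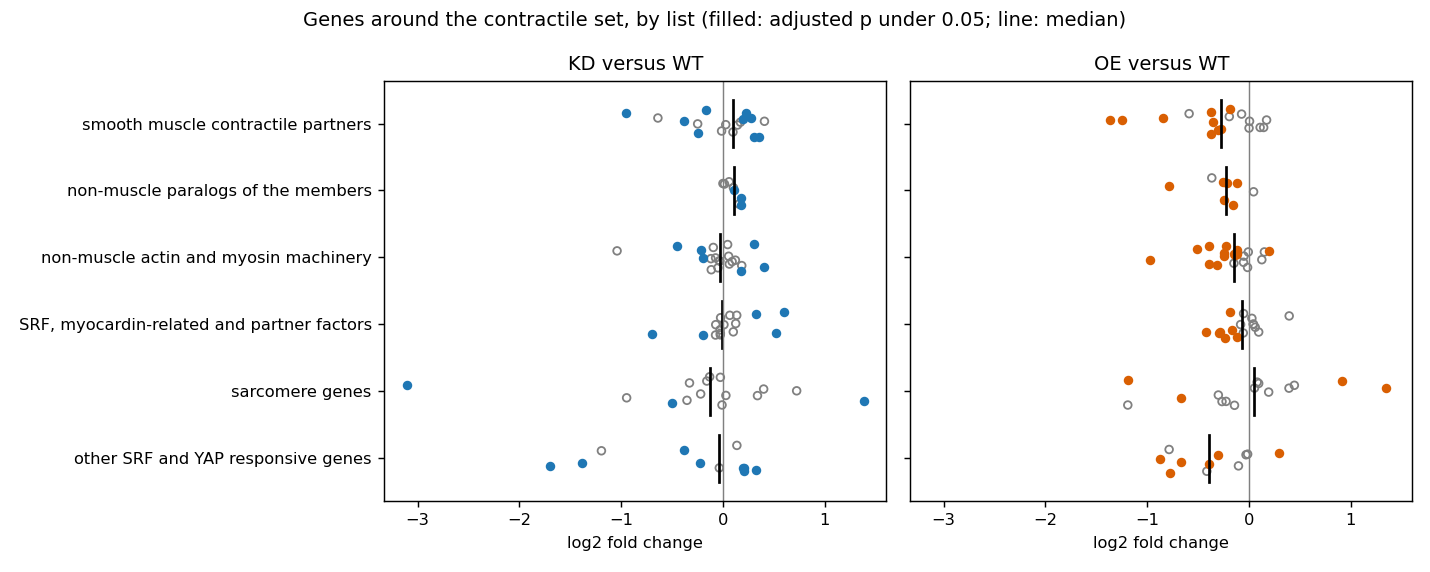
log2 fold change against WT (horizontal axis) of the tested genes of 6 lists around the 10 genes, in KD (left) and OE (right); filled points passed at an adjusted p under 0.05, open points did not, and black lines are list medians. In OE the medians were -0.27 for smooth muscle partners, -0.23 for paralogs and -0.14 for machinery. They were -0.068 for transcription factors, 0.055 for sarcomere genes and -0.39 for other SRF and YAP genes. In KD, in the same order, they were 0.10, 0.11, -0.032, -0.0055, -0.13 and -0.035.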

How the data were processed

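RNA-seq libraries of 3 WT, 3 KD and 3 OE samples were analysed. The authors deposited raw counts per Ensembl gene and library, and GRCm38 (mm10) is the build per the submitters' processing notes. The aligner, the counting program, the strand setting and the annotation release are not given in the sources used here. The table had 55774 rows; 168 genes on 455 rows with identical counts were each counted once, and 0 sample columns were left over. Positions, exon lengths and transcripts came from GENCODE M21 (GRCm38), and promoters from the RefSeq table (GRCm38.p6).

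Counts were fitted with edgeR 4.0.16 (limma 3.58.1, DESeq2 1.42.0, R 4.3.3; Python 3.11.15, pandas 2.3.3, matplotlib 3.10.9): filterByExpr, TMM, 1 robust quasi-likelihood fit of all 9 libraries by group, and Benjamini-Hochberg adjustment over 16955 genes with a threshold of 0.05. Every adjusted p printed is from this test. SEs came from SDs of log2 CPM (prior count 2). RPKM is TMM-scaled CPM per 1000 bases of merged exons, which understates genes with many isoforms such as Tpm1.

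The 10 genes and the lists were chosen with earlier results of these data known. Named besides them are all paralogs and, per list and comparison, the 2 called genes with the smallest p in each direction, and the 3 genes most like Acta2 and Actc1 leaving out predicted genes and those below 5 CPM in each group. Alternatives were other scalings, filters and tests, a fit of 2 groups at a time, the replicate block, removal of 20 Mb window medians and leaving out each library. Intervals and the limit of 3 counts cover counting error only.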

Additional observations from a re-analysis of the deposited data

How the results depend on the processing

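The 10 genes were chosen for their differences in these libraries, so a call that holds under an alternative is no independent support for it. With at least 10 counts in every library Actc1 and Tagln were not tested, and 3 of the 10 genes differed between OE and KD in place of 5. The sign of Cnn1 in OE against WT was not stable: it was -0.050 with library totals, -0.12 with limma-voom, -0.11 with the replicate block, and from -0.60 (without OE replicate 3) to 0.36 with 1 library left out. With 1 library left out, Cnn1 in OE against KD ran from -0.053 (without OE replicate 3) to 0.94 and Tpm2 from -0.060 (without KD replicate 2) to 0.27, and Cnn1 was 1.04 with window medians removed. With 1 library left out, 4 to 5 of the 10 genes passed in each comparison, and between 2537 and 4699 of all genes in KD against WT, 5228 and 6440 in OE against WT, and 6072 and 7604 in OE against KD.

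Same-numbered libraries of different groups correlated at -0.042 to 0.049 in their deviations from group means, so the numbers did not pair them. With the replicate block 5 of the 10 genes passed in each comparison, and 3574, 6111 and 6969 of all genes in KD against WT, OE against WT and OE against KD, where 3617, 6174 and 7031 passed without it.

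In KD against WT, the number of paralogs past the threshold was 3, but 0 with library totals, 1 with window medians removed, and 1 without KD replicate 2 or 3. For the smooth muscle partners it was 9, but 5 with library totals or without KD replicate 2, and for other SRF and YAP genes 8, but 5 with library totals. In OE against WT, 4 sarcomere genes passed, but 2 without a filter, 2 without OE replicate 1 or 3 and 1 without WT replicate 2. The causes were not tested. Depth limits Acta1, Actg2 and Myl9, with at most 12 counts in a library.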
